A study of Saccharomyces cerevisiae with 21 samples.

Results

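The comparison set *ino4Δ* cells that carried a plasmid for mga2ΔTM (titled ino4delta pRS316-GPDprom-Mga2deltaTM-mCh) against *ino4Δ* cells without a plasmid (titled ino4delta SDC+All). Its libraries were picked by these titles and by no measured value, and were 6 of the 21 of the series, 3 of each strain. Both strains were budding yeast of the BY4741 background with the *INO4* gene deleted. The plasmid strain, called the *ino4Δ mga2ΔTM* double mutant here, grew in synthetic medium without uracil (SDC-URA), which keeps a *URA3*-marked plasmid in the cell. The *ino4Δ* strain grew in the complete medium (SDC+All). RNA of exponentially growing cells was depleted of ribosomal RNA and sequenced, and reads were counted per gene. Both strains kept the chromosomal *MGA2* gene, so reads assigned to *MGA2* came from the chromosome and the plasmid together. Strain, plasmid and medium changed at once and no library with an empty plasmid in *ino4Δ* was analysed here, so the effects of mga2ΔTM, of the plasmid and of the medium cannot be told apart. Fewer cells of a kind and less RNA per cell also cannot be told apart in such cultures. Nothing in the labels says whether the replicates were separate cultures. The p-values measure only the spread between replicate libraries, estimated over all 21 of the series, and that spread may be technical.

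Mga2 is a transcription factor made as a precursor that sits in the membrane of the endoplasmic reticulum (ER) by a single helix. When membrane lipids are too saturated, a ubiquitin-dependent step releases its soluble part, which enters the nucleus and switches on *OLE1*, the gene of the only fatty acid desaturase of budding yeast. Mga2ΔTM lacks the membrane helix, so it is not held at the ER, and here it was made from the strong glyceraldehyde-3-phosphate dehydrogenase (GPD) promoter with a red fluorescent tag. Ino4 pairs with Ino2 to activate genes of phospholipid synthesis and inositol supply through a promoter element called UASINO. The study used such strains to look for genes behind lipid droplets that form inside the nucleus.

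The 6 libraries held between 14036407 and 18372240 counts, 15610451 to 17060991 in *ino4Δ* and 14036407 to 18372240 in the double mutant. The RNA of the signal recognition particle, *SCR1*, took 9.74% to 11.8% of the counts in them, against 5.55% to 7.53% in the other 15 libraries of the series. Libraries of the same strain correlated at 0.990 to 0.996 in log2 CPM (counts scaled to the library's total), and libraries of different strains at 0.975 to 0.980. Double mutant replicate 1 and *ino4Δ* replicate 3 each stood a little apart from the other 2 of their strain. In *ino4Δ*, replicate 3 correlated at 0.991 and 0.994 with the others, which correlated at 0.996 with each other. Genes of mating type a, the type of BY4741, summed to 883 to 928 CPM in *ino4Δ* and 959 to 1068 CPM in the double mutant, and those of type alpha to 39.2 to 45.0 and 36.8 to 44.5 CPM.

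The engineered genes matched the labels. *INO4* had 29, 24 and 18 reads in the *ino4Δ* libraries and 13, 10 and 13 in the double mutant, against 145, 181 and 140 in wild-type, so a low residue of reads remained at the deleted gene in both strains. *URA3*, the plasmid marker, had no read in the 3 *ino4Δ* libraries and 3481, 2704 and 4123 in the double mutant. Set against a floor of 3 counts per library, *URA3* was at least 980-fold higher. *LEU2* and *MET17*, which BY4741 lacks, had no read in any of the 6. *HIS3*, the other deletion marker of BY4741, did have reads, with 615, 562 and 538 in *ino4Δ* and 586, 583 and 675 in the double mutant. The source of the *HIS3* reads was not tested. *MGA2* (chromosome IX, 416124 to 419465, yeast genome R64) stood at 203, 208 and 193 CPM in *ino4Δ* and at 2263, 1880 and 1653 CPM in the double mutant. The groups were far apart, a 9.60-fold difference (log2 3.26 ± 0.12 SE, n = 3 and 3, edgeR adjusted p = 4.63e-13).

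Of 6164 genes with enough counts to test, 265 (4.3%) were higher in the double mutant and 318 (5.16%) lower, by a fold change above 1.5 and an adjusted p below 0.05 in edgeR's quasi-likelihood test. A gene was said to rise or fall where it passed both. The median log2 change over all tested genes was -0.03 and the median standard error 0.11. Gene groups below are read against these shares. Genes of iron uptake, desaturation, fatty acid synthesis and phosphatidic acid formation were well above 4.3% on the higher side. General stress genes, genes encoded in the mitochondrial genome and respiratory chain genes were well above 5.16% on the lower side.

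**Figure D1:**
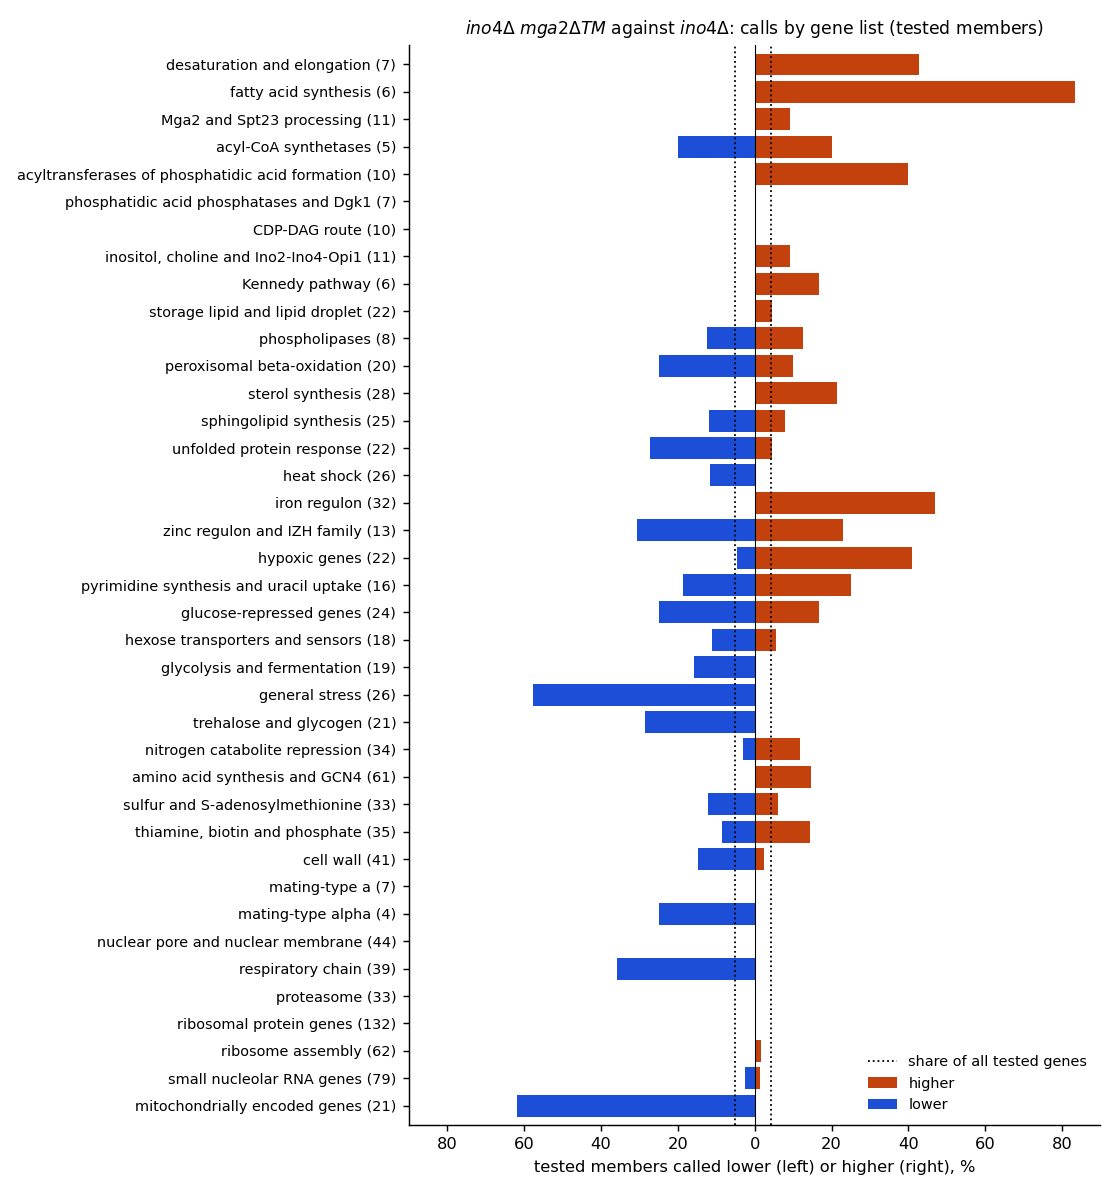
Share of the tested members of each gene list that were called higher (right, orange) or lower (left, blue) in the double mutant against *ino4Δ*, in percent, with the number of tested members in parentheses and dotted lines at the shares of all tested genes (4.3% and 5.16%). Iron genes reach 15 of 32 on the right, and general stress and mitochondrially encoded genes reach 15 of 26 and 13 of 21 on the left.

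The known target of Mga2 was examined first. The stretch of the *OLE1* promoter that holds the low oxygen response element (LORE), through which Mga2 is known to act, is shown because it is the element the engineered protein is known for. It is given from RefSeq at chrVII:398259-398318, plus strand, genome R64, with the LORE letters ACTCAACAA in capitals, beginning 343 bases before the start of the gene.
OLE1 LORE: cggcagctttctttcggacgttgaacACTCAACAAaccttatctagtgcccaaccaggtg
These letters were searched on both strands of the 500 bases before each gene. They stood in 22 of 5678 promoters of tested genes (0.387%), in 1 of the 249 promoters of higher genes, that of *OLE1*, and in 0 of the 275 promoters of lower genes. A match is a description of letters and not a binding site.

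*OLE1* (chromosome VII, 398628 to 400160) stood at 967, 970.2 and 708 CPM in *ino4Δ* and at 2720, 1881 and 2239 CPM in the double mutant. All 3 double mutant libraries were above all 3 controls, and *OLE1* rose 2.59-fold (log2 1.37 ± 0.18, adjusted p = 2.12e-05). *ELO1*, an elongase of medium-chain fatty acids, stood at 56.5, 61.9 and 76.3 CPM and at 155, 142 and 132 CPM. It rose 2.20-fold without overlap of the groups (log2 1.14 ± 0.12, adjusted p = 9.07e-07). *PHS1*, the dehydratase of the elongation cycle, rose by 1.11 on the log2 scale and its SE was 0.07. These 3 were the called members among 7 genes of desaturation and elongation. The median of the list was 0.29, and none of the 7 fell. The other members, which include the elongases *ELO2* and *ELO3*, lay between -0.28 and 0.29.

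Fatty acid synthesis rose more evenly, with 5 of 6 genes higher, none lower and a median of 0.76. *ACC1*, the acetyl-CoA carboxylase that makes malonyl-CoA, stood at 1609, 1529 and 1358 CPM in *ino4Δ* and at 3239, 2345 and 2418 CPM in the double mutant (log2 0.83 ± 0.12, adjusted p = 4.19e-05). *FAS2*, the alpha subunit of fatty acid synthase, stood at 1503, 1447 and 1249 CPM and at 3019, 2447 and 2555 CPM (log2 0.93 ± 0.11, adjusted p = 3.68e-06). Neither gene overlapped between the strains. *FAS1*, the beta subunit, rose by 0.63, close to the threshold of fold, and fell short of it without *ino4Δ* replicate 3 (0.57) or without double mutant replicate 1 (0.48). *ACB1*, the acyl-CoA binding protein, rose by 0.85 and *BPL1*, the ligase that puts biotin on carboxylases, by 0.68.

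Acyl-CoA synthetases, which activate fatty acids for use, split. *FAA4* stood at 342, 329 and 277 CPM in *ino4Δ* and at 670.4, 547 and 587 CPM in the double mutant, and rose by 0.93 on the log2 scale (SE 0.14, adjusted p = 5.09e-05). *FAA1*, the synthetase for imported long-chain fatty acids, stood at 239, 256 and 279 CPM and at 121, 124 and 133 CPM, and fell by 1.03 (SE 0.09, adjusted p = 1.51e-07). The groups of both genes were separate, in opposite directions. The other 3 members of the list were between -0.35 and 0.19.

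Phosphatidic acid is the branch point between membrane phospholipids and storage fat, and 4 of the 10 acyltransferase genes of its formation rose while none fell. *ALE1*, an acyltransferase of lysophospholipids, stood at 126, 129 and 119 CPM and at 320, 283 and 299 CPM, a 2.41-fold rise (log2 1.27 ± 0.06, adjusted p = 4.18e-11). *SLC1*, the acyltransferase that makes phosphatidic acid from its lyso form, stood at 53.5, 63.7 and 68.9 CPM and at 129, 162 and 145 CPM (log2 1.23 ± 0.10, adjusted p = 4.29e-08). No library of one strain reached the other strain in either gene. *ICT1*, an acyltransferase of lysophosphatidic acid, rose by 0.84. *SCT1*, a glycerol-3-phosphate acyltransferase, rose by 0.59, just past the threshold, and lost the call when libraries were scaled by their totals only (0.58).

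The steps after phosphatidic acid moved little. None of 7 genes of phosphatidic acid phosphatases and the kinase Dgk1 passed the edgeR test, where 2 were higher and 1 lower at an unadjusted p below 0.05, limma-voom called 0 and DESeq2 called 1 higher. *PAH1*, the phosphatidate phosphatase on the route to triacylglycerol, was at 0.14 (SE 0.09). None of 10 genes of the CDP-diacylglycerol route passed it either, with 2 higher and 1 lower at an unadjusted p below 0.05 and 0 by limma-voom and DESeq2. In that list, the methyltransferases of phosphatidylcholine synthesis stood at 0.15 (*CHO2*, SE 0.11) and -0.10 (*OPI3*, SE 0.10), and the libraries of the strains overlapped in both.

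Genes of inositol supply and of the Ino2-Ino4-Opi1 circuit gave 1 call in 11. *ITR1*, the main inositol transporter, rose by 0.60, and lost the call without *ino4Δ* replicate 3 (0.56), without double mutant replicate 3 (0.50) and in limma-voom (0.58). *INO1*, which makes inositol phosphate and is the classic target of Ino2-Ino4, was at -0.59 (SE 0.28, adjusted p = 0.120). The UASINO core CATGTG, searched on both strands of the same 500 bases, stood in 5 of the 11 promoters of the list and in 13.05% of all promoters of tested genes. It stood in 12.0% of the promoters of higher genes and in 15.6% of those of lower genes. In the Kennedy pathway, which makes phospholipids from choline and ethanolamine, *EKI1*, the ethanolamine kinase, was the called gene of 6, at 0.63 (0.54 and no call without double mutant replicate 2).

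Of 22 storage lipid and lipid droplet genes, *TLD1*, an inhibitor of a triacylglycerol lipase at droplets, was the one that rose (log2 1.22 ± 0.10, adjusted p = 2.80e-08), and none fell. The other 21 were between -0.43 and 0.47. *SEI1*, the seipin at the contact of the ER with the droplet, was at 0.01. Among 8 phospholipases, *PLB2*, a lysophospholipase, rose by 0.91, and *PLB3*, which acts on phosphatidylserine and phosphatidylinositol, fell by 0.95. *PLB2* stood at 46.1, 37.8 and 38.4 CPM in *ino4Δ* and at 82.1, 72.0 and 75.9 CPM in the double mutant. *PLB3* stood at 197, 190 and 161 CPM and at 110.5, 84.2 and 90.2 CPM, so its order of the strains was the reverse.

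**Figure D2:**
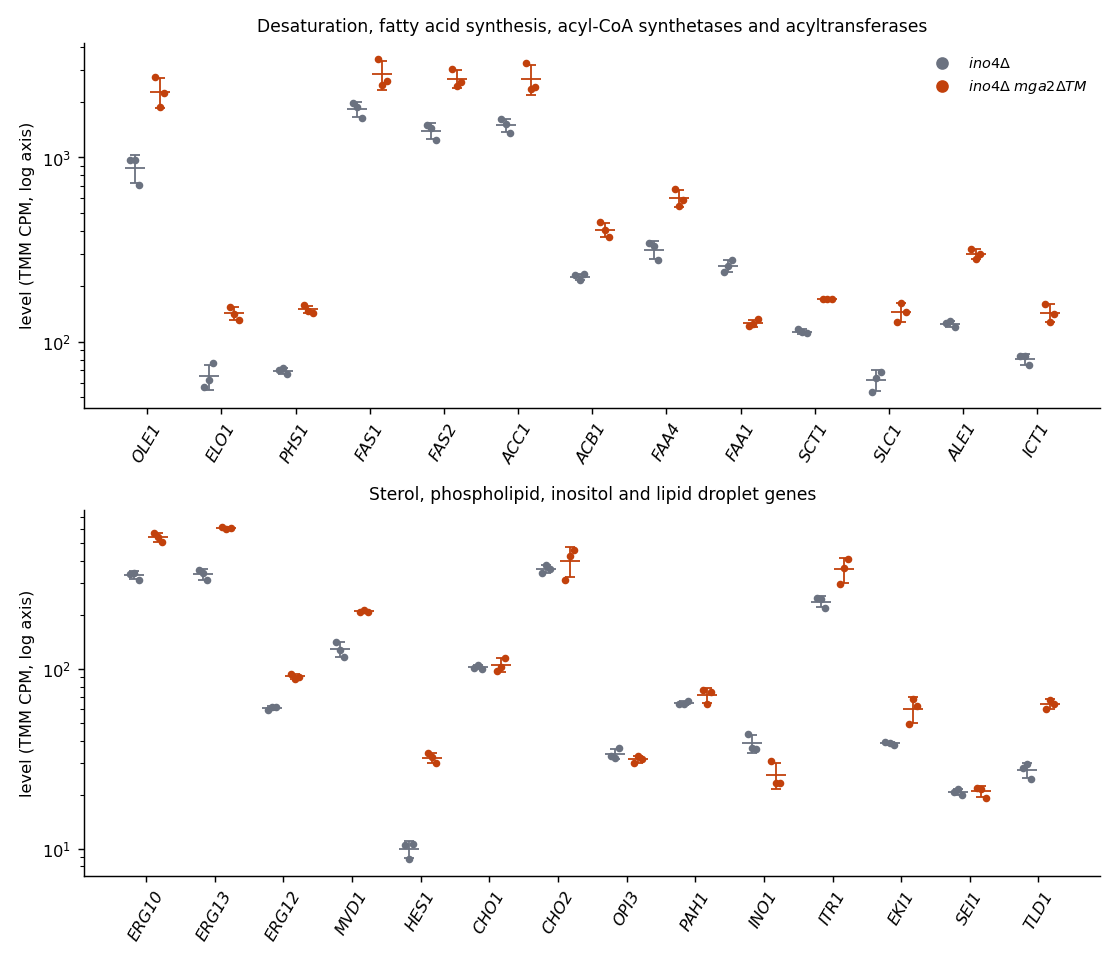
Levels of lipid genes in TMM-normalised CPM (log axis), with 1 point per library, for *ino4Δ* (grey) and the double mutant (orange), and the mean ± SD of 3 libraries. In the upper panel all orange points of *OLE1*, *ELO1*, *FAS2*, *SLC1* and *ALE1* are above the grey ones and those of *FAA1* are below, while *CHO2*, *OPI3* and *PAH1* in the lower panel overlap.

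Peroxisomal beta-oxidation, the breakdown of fatty acids, gave 2 higher and 5 lower genes of 20. The core enzymes fell from low levels. *POX1*, the acyl-CoA oxidase, stood at 9.93, 8.64 and 7.97 CPM in *ino4Δ* and at 5.05, 3.95 and 4.09 CPM in the double mutant (log2 -1.02 ± 0.19, adjusted p = 0.000600), with no overlap. *POT1*, the thiolase, fell by 0.95. The members that rose were the carnitine acetyltransferases, which carry acetyl groups rather than oxidise fatty acids. *YAT1* stood at 9.37, 12.1 and 7.75 CPM and at 49.1, 29.0 and 31.4 CPM, a 3.75-fold rise (log2 1.91 ± 0.23, adjusted p = 6.14e-06), and *YAT2* rose by 0.70.

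Sterol genes showed 6 of 28 higher and none lower. *HES1*, an oxysterol-binding protein of sterol transport, led them and stood at 10.6, 8.76 and 10.6 CPM in *ino4Δ* and at 34.2, 32.3 and 30.1 CPM in the double mutant, a 3.22-fold rise (log2 1.69 ± 0.14, adjusted p = 6.84e-08). The other calls were early enzymes of the mevalonate route and a regulator. *ERG13*, the HMG-CoA synthase, rose by 0.86, *MVD1*, the mevalonate pyrophosphate decarboxylase, by 0.71, and *ERG10*, the acetoacetyl-CoA thiolase, by 0.70. *ERG12*, the mevalonate kinase, was just past the threshold at 0.59 and lost the call without *ino4Δ* replicate 1 (0.58), without double mutant replicate 1 (0.58) and with library totals only (0.58). *UPC2*, the sterol-responsive transcription factor, was at 0.60 (0.50 and no call without double mutant replicate 3). The median of the sterol list was 0.07, near that of all genes.

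Sphingolipid synthesis gave 2 higher and 3 lower genes of 25. *LAC1*, a ceramide synthase subunit, rose by 0.88 and *ISC1*, the inositol phosphosphingolipid phospholipase, by 0.69. *ORM2*, a brake on serine palmitoyltransferase, fell by 0.86, *YPC1*, a ceramidase, by 0.96, and *SUR1*, of mannosylated sphingolipid synthesis and named after its values were seen, by 0.91. The *SUR1* call was lost without *ino4Δ* replicate 1 (-0.83, adjusted p = 0.0567), *ino4Δ* replicate 2 (-0.84, adjusted p = 0.0548) or double mutant replicate 2 (-0.67, adjusted p = 0.0852).

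The iron regulon held the highest share of risen genes among the lists of over 20 genes. Budding yeast takes up iron through cell wall mannoproteins that hold siderophores (*FIT1* to *FIT3*), surface reductases, siderophore transporters (*ARN1*, *ARN2*, *SIT1*, *ENB1*) and the oxidase and permease pair *FET3* and *FTR1*. Aft1 and Aft2 switch them on in iron shortage through promoters that hold the letters GCACCC. Of 32 listed genes 15 rose, none fell and the median was 0.56, against -0.03 over all genes. Leaving out 1 library at a time gave 14 to 17.

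*FIT3* (chromosome XV, 1060441 to 1061055) stood at 39.1, 43.1 and 48.1 CPM in *ino4Δ* and at 556, 360.4 and 349.8 CPM in the double mutant. It rose 9.71-fold (log2 3.28 ± 0.27, adjusted p = 1.01e-07). Replicate 1 of the double mutant was the highest in this gene and in *FRE5*, *FIT2*, *ARN1*, *ARN2*, *SIT1* and *FET3*, and the strains did not overlap in any of them. *FRE5*, a putative ferric reductase, had 1.74, 2.03 and 1.51 CPM and 15.7, 11.5 and 10.9 CPM (log2 2.85 ± 0.24, adjusted p = 7.06e-08). *FIT2* had 34.6, 40.6 and 43.7 CPM and 239, 144 and 145 CPM (log2 2.15 ± 0.25, adjusted p = 6.91e-06). *LSO1*, a small gene of the iron response, stood near 1 CPM and below in *ino4Δ* (0.56, 0.71 and 0.97) and at 3.46, 4.08 and 2.86 CPM in the double mutant (log2 2.19 ± 0.34, adjusted p = 0.000156).

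The siderophore transporters rose as well. *ARN2* rose by 1.75 on the log2 scale and *ARN1* by 1.62. Among genes named after their values were seen, *SIT1* rose by 1.54, *FET3* by 1.14, *FIT1* by 1.06 and *FTR1* by 0.81. *FET3*, the multicopper oxidase of high-affinity uptake, stood at 268, 258 and 245 CPM and at 687, 486 and 520 CPM, the most abundant of these.

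Promoter stretches of 4 iron genes, the most changed of those whose window held the letters, are shown from RefSeq (genome R64), each read on the strand of its gene and with every copy of GCACCC, or its reverse complement GGGTGC, in capitals. They lie at chrXV:1061214-1061259 (minus strand), chrXV:1061314-1061359 (plus strand), chrX:448877-448922 (minus strand) and chrXV:1059380-1059425 (plus strand), in the order given.
FIT3: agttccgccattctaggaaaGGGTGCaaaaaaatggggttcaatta
FRE5: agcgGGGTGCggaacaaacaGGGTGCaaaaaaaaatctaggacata
LSO1: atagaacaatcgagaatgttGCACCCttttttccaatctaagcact
FIT2: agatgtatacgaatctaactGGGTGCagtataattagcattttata
*FIT3* and *FRE5* are neighbours read in opposite directions, so their windows overlap and share copies. The 6 letters, searched on both strands of 500 bases, stood in 26 of the 32 promoters of the iron list and in 14 of the 15 of its risen genes. Over all promoters of tested genes the share was 7.43%, over those of higher genes 15.3% and over those of lower genes 9.82%. The list was drawn from genes known for this regulation, so its share describes the list.

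Of 13 genes of the zinc regulon and the *IZH* family 3 rose and 4 fell, and the other 6 lay between -0.58 and 0.27. The risen ones were *IZH* genes, which encode membrane proteins of the adiponectin receptor family tied to zinc and lipid balance. *IZH4* (chromosome XV, 126982 to 127920) stood at 15.6, 20.01 and 16.2 CPM in *ino4Δ* and at 134, 108 and 106 CPM in the double mutant, a 6.73-fold rise (log2 2.75 ± 0.17, adjusted p = 9.99e-10). *IZH2* stood at 61.1, 63.0 and 51.6 CPM and at 192, 147 and 152 CPM (log2 1.48 ± 0.14, adjusted p = 2.10e-07). *IZH1* rose by 0.87. The lowest double mutant library was above the highest *ino4Δ* library in each of these genes.

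The 4 that fell were *ZPS1*, *ADH4*, *ZRT1* and *ZAP1*, the last being the zinc-sensing activator known to control the zinc regulon. *ZPS1*, a secreted protein of zinc shortage, stood at 226, 239 and 215 CPM in *ino4Δ* and at 45.3, 28.1 and 15.7 CPM in the double mutant, a 7.66-fold fall (log2 -2.94 ± 0.70, adjusted p = 0.00455). *ADH4*, an alcohol dehydrogenase made in zinc shortage, stood at 228.5, 280.0 and 209.7 CPM and at 46.1, 39.0 and 44.2 CPM (log2 -2.47 ± 0.68, adjusted p = 0.0109). *ZRT1*, the high-affinity zinc transporter, stood at 1030, 1299 and 1042 CPM and at 361, 407 and 267 CPM (log2 -1.70 ± 0.36, adjusted p = 0.00182). These SEs were several times the median SE although the 6 libraries shown did not overlap. They rest on the spread within all strains of the series. In *mga2Δ* with a plasmid for full-length Mga2, the mean log2 CPM of the zinc and *IZH* list was 7.51, 7.12 and 6.38. *ZAP1* itself, named after its values were seen, was at -0.98, and its call was lost when any of *ino4Δ* replicate 2 (adjusted p = 0.0737), *ino4Δ* replicate 3 (0.0728), double mutant replicate 2 (0.0543) or double mutant replicate 3 (0.0856) was left out.

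Hypoxic genes, which yeast expresses when oxygen, haem or sterols are scarce, gave 9 higher and 1 lower of 22, *MGA2* itself among the 9. The lower count was 2 without double mutant replicate 1 and 0 without *ino4Δ* replicate 3. The median was 0.56. *DAN1*, a cell wall protein of anaerobic growth, stood at 1.07, 1.43 and 1.29 CPM and at 8.32, 6.22 and 5.16 CPM, a 5.16-fold rise (log2 2.37 ± 0.30, adjusted p = 1.26e-05). *YHB1*, the flavohaemoglobin that removes nitric oxide, stood at 115, 89.1 and 75.9 CPM and at 142, 236 and 274 CPM (log2 1.22 ± 0.21, adjusted p = 0.000334). In *YHB1*, double mutant replicate 1 was the lowest of its strain, the reverse of the iron genes. *TIR4*, another anaerobic mannoprotein, rose by 1.34 and *AUS1*, a transporter for sterol uptake, by 0.85. *HEM13*, an oxygen-dependent enzyme of haem synthesis, was at 0.66 (0.48 and no call without double mutant replicate 3). *CYC7*, the cytochrome c isoform of low oxygen and named after its values were seen, was the gene that fell (-1.36), a call lost without *ino4Δ* replicate 3 (-0.91, adjusted p = 0.108).

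**Figure D3:**
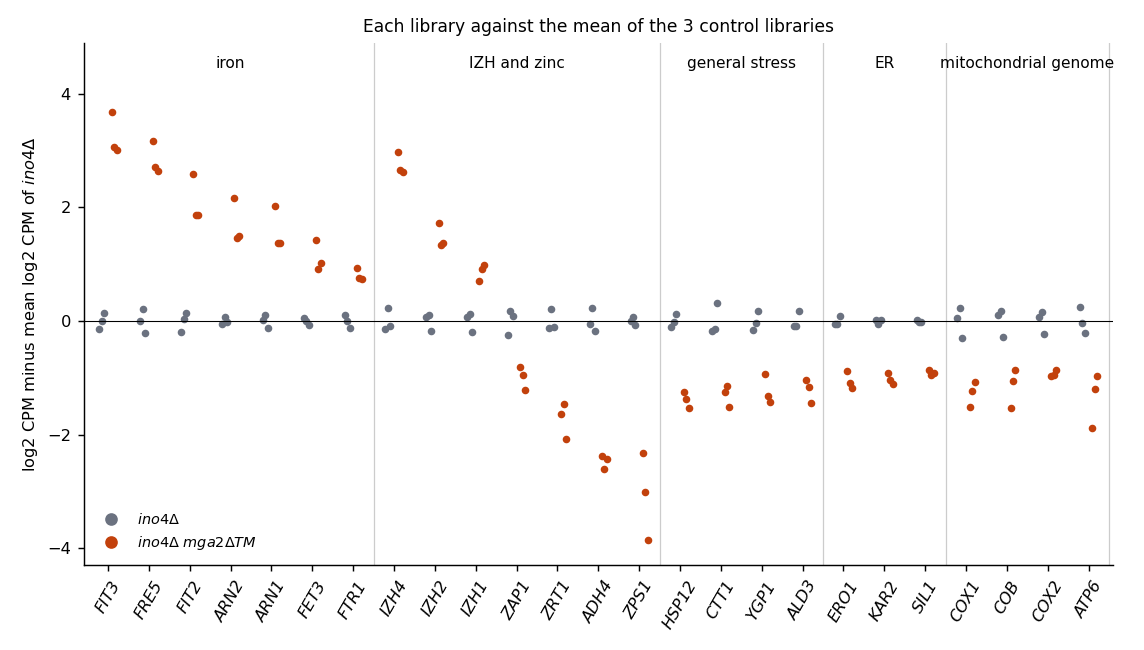
Log2 CPM of each library minus the mean log2 CPM of the 3 *ino4Δ* libraries, with 1 point per library, for *ino4Δ* (grey) and the double mutant (orange), in 5 gene groups. Iron and *IZH* genes lie above 0 in the double mutant, and zinc, general stress, ER and mitochondrially encoded genes lie below it, with no orange point among the grey ones.

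General stress genes, switched on by Msn2 and Msn4 through the stress response element AGGGG, were lower. Of 26 genes 15 fell, none rose and the median was -0.81. *HSP12*, a small membrane-protecting heat shock protein, stood at 1614, 1736 and 1893 CPM in *ino4Δ* and at 731, 673 and 603 CPM in the double mutant, a 2.61-fold fall (log2 -1.39 ± 0.23, adjusted p = 0.000197). *YGP1*, a secreted glycoprotein of nutrient limitation, stood at 569, 615 and 715 CPM and at 329.7, 254 and 236 CPM (log2 -1.21 ± 0.15, adjusted p = 1.31e-05). *CTT1*, the cytosolic catalase, stood at 199.9, 206 and 281 CPM and at 95.7, 102 and 79.3 CPM (log2 -1.31 ± 0.34, adjusted p = 0.00716). No double mutant library reached the lowest control in these 3 genes.

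*SPI1*, a cell wall protein of stationary cells, fell by 1.27, *ALD3*, a stress-induced aldehyde dehydrogenase, by 1.21 and *GRE1*, a small hydrophilin of osmotic stress, by 0.98. *CTT1* and *STF2*, a protein of desiccation tolerance, were named after their values were seen. *STF2* stood at 74.5, 89.2 and 174 CPM in *ino4Δ* and at 41.8, 46.0 and 48.6 CPM in the double mutant, and *ino4Δ* replicate 3 was far above the other 2 of its strain. Its fall by 1.31 was not called without that library (-0.83, adjusted p = 0.115). The list as a whole had 10 calls without *ino4Δ* replicate 3, 10 without double mutant replicate 3 and 14 or 15 without any other library.

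The stress response elements of 3 called genes, the most changed of those whose window held the letters, are shown from RefSeq (genome R64), read on the strand of each gene, with each copy of AGGGG or its reverse complement CCCCT in capitals. They lie at chrVI:107046-107090 (plus strand), chrVII:654481-654525 (plus strand) and chrVII:508529-508573 (minus strand), in the order given.
HSP12: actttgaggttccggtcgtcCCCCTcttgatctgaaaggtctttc
CTT1: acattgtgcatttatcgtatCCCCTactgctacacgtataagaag
STF2: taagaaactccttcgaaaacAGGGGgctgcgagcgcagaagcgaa
The 5 letters stood, on either strand of 500 bases, in 21 of the 26 promoters of the list and in 13 of the 15 of its fallen genes. The share was 34.3% over all promoters of tested genes, 54.9% over those of all lower genes and 25.3% over those of all higher genes. This list too was drawn from genes known for the element.

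The unfolded protein response raises chaperones and redox enzymes of the ER when folding is overloaded or the membrane is strained. Of 22 listed genes 6 fell and 1 passed the test upward. *KAR2*, the main ER chaperone of the Hsp70 family, stood at 2109, 2004 and 2118 CPM in *ino4Δ* and at 1100, 1016 and 966 CPM in the double mutant, a 2.02-fold fall (log2 -1.02 ± 0.10, adjusted p = 3.00e-07). *ERO1*, the thiol oxidase that drives disulphide formation, stood at 374.1, 374.5 and 414 CPM and at 212, 181 and 172 CPM (log2 -1.04 ± 0.10, adjusted p = 2.03e-07). *SIL1*, the exchange factor of Kar2, stood at 114, 110.9 and 110.5 CPM and at 61.3, 58.1 and 59.5 CPM (log2 -0.91 ± 0.07, adjusted p = 2.82e-08). The libraries of each strain lay close together in all 3.

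*ULI1*, a gene induced by the unfolded protein response, fell by 1.42, *MPD1*, a disulphide isomerase, by 0.84 and *LHS1*, the partner chaperone of Kar2, by 0.63 (-0.58 and no call without double mutant replicate 2 or with only the strains compared). The member that passed upward, *YOS9*, a lectin of ER-associated degradation, was at 0.59 and fell short of the fold threshold without *ino4Δ* replicate 2 (0.56), double mutant replicate 2 (0.53) or double mutant replicate 3 (0.54), in limma-voom (0.58) and with library totals only (0.58). Heat shock genes gave 3 lower and 0 higher of 26, with 1 higher at an unadjusted p below 0.05 and 0 higher by limma-voom and DESeq2. *SSA4*, the stress-induced cytosolic Hsp70, fell by 1.26 and *SSE2*, its exchange factor, by 0.77, a call lost without *ino4Δ* replicate 3 (-0.64, adjusted p = 0.0507).

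Genes of the respiratory chain were lower in both genomes. Of 39 nuclear genes 14 fell, none rose and the median was -0.49. *SDH1*, the flavoprotein of succinate dehydrogenase, fell by 0.90. *QCR6*, of the cytochrome bc1 complex and named after its values were seen, fell by 1.003. Of 21 tested genes encoded in the mitochondrial genome 13 fell, and all 21 log2 values were below 0, with a median of -0.93. *COX1*, the core subunit of cytochrome oxidase, stood at 1106, 1253 and 872 CPM in *ino4Δ* and at 375.0, 451.5 and 509 CPM in the double mutant (log2 -1.27 ± 0.13, adjusted p = 1.03e-06). *COB*, cytochrome b, fell by 1.14, and *ATP6*, an ATP synthase subunit named after its values were seen, by 1.31. Double mutant replicate 1 was the lowest library for *COX1*, *COB* and *ATP6*. Mitochondrial transcripts carry no poly(A) tail of the nuclear kind, and these libraries were made by depletion of ribosomal RNA with random primers.

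Transcripts of carbon storage genes were lower too. Trehalose and glycogen genes gave 6 lower and 0 higher of 21 (none higher at an unadjusted p below 0.05, nor by limma-voom or DESeq2), with a median of -0.56. That count was 2 without *ino4Δ* replicate 3 and 4 to 7 without any other library. *PGM2*, the phosphoglucomutase, fell by 1.04 but was not called without *ino4Δ* replicate 3 (-0.78, adjusted p = 0.0678). The calls of *GSY1*, *GSY2*, *GLG2* and *TPS1* were likewise each lost when some single library was left out. Genes repressed by glucose gave 4 higher and 6 lower of 24. The lower count was 3 without *ino4Δ* replicate 2 and 3 without double mutant replicate 2. *JEN1*, the lactate permease, fell by 1.21, while *CIT2*, the peroxisomal citrate synthase, rose by 0.99. Among hexose transporters *HXT4* was the clearest fall, from 180, 220 and 148 CPM to 59.1, 29.1 and 67.6 CPM (log2 -1.81 ± 0.40, adjusted p = 0.00268). The *HXT* genes are close copies of each other, so the assignment of reads among them is uncertain.

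The pyrimidine genes, which bear on the change of medium, moved both ways. *URA2*, which makes carbamoyl aspartate in the first steps of the route, stood at 2033, 1888 and 1619 CPM and at 3430, 3215 and 3448 CPM (log2 0.87 ± 0.12, adjusted p = 3.16e-05). *URA1*, the dihydroorotate dehydrogenase, stood at 701, 711 and 627 CPM and at 274, 280.3 and 313 CPM (log2 -1.23 ± 0.09, adjusted p = 1.43e-08). *URA4*, the dihydroorotase, fell by 0.91 and *FUR1*, which salvages uracil, by 0.75, and *FUI1*, the uridine permease, rose by 0.74. The share of the medium in these changes was not tested.

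Nitrogen genes gave a few rises. Of 34 tested genes under nitrogen catabolite repression, which shuts off the use of poor nitrogen sources, 4 rose and 1 fell, with a median of 0.05. *GAP1*, the general amino acid permease, stood at 70.8, 67.7 and 79.6 CPM and at 167, 213 and 233 CPM (log2 1.49 ± 0.11, adjusted p = 1.70e-08). *MEP2*, the ammonium permease, stood at 48.8, 36.2 and 39.2 CPM and at 97.5, 96.1 and 125 CPM (log2 1.36 ± 0.12, adjusted p = 1.04e-07). *DUR3*, a urea transporter, rose by 1.37, and *GDH2*, the glutamate dehydrogenase that releases ammonium, by 0.90. The strains were separate in all 4. The count of risen genes was 7 without *ino4Δ* replicate 3 and 4 to 6 without any other library.

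Amino acid synthesis and Gcn4 targets gave 9 higher and 0 lower of 61 (4 lower at an unadjusted p below 0.05, 0 lower by limma-voom and DESeq2). The higher count was 5 without *ino4Δ* replicate 3 and 6 to 11 otherwise. *GDH3*, a glutamate dehydrogenase of synthesis, rose by 1.25 and *BAT2*, the cytosolic branched-chain aminotransferase, by 1.13. *SAM2*, an S-adenosylmethionine synthetase, rose by 1.12, whereas *SUL1*, the sulphate permease, fell from 110.5, 65.8 and 75.3 CPM to 22.7, 21.4 and 30.8 CPM (log2 -1.74 ± 0.21, adjusted p = 7.02e-06). *BIO2*, biotin synthase, rose from 52.6, 56.9 and 41.6 CPM to 157, 138 and 151 CPM (log2 1.56 ± 0.12, adjusted p = 2.72e-08). Cell wall genes gave 1 higher and 6 lower of 41, among them the mannoprotein *CWP1*, which fell by 1.77. The phosphate transporter *PHO84* was called at -1.84, a call that was lost in limma-voom (adjusted p = 0.0712) and without most single libraries.

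Among called genes with at least 10 counts on average and separate libraries, *YGL039W* had the largest rise apart from the plasmid marker. It lies on chromosome VII (423961 to 425007) and is annotated as an aldehyde reductase. It stood at 32.0, 29.0 and 30.9 CPM in *ino4Δ* and at 408, 296 and 288 CPM in the double mutant, a 10.8-fold rise (log2 3.43 ± 0.14, adjusted p = 2.31e-12). *YHK8*, a presumed transporter of the drug-proton antiporter family, rose from 7.46, 8.16 and 7.27 CPM to 52.6, 39.6 and 42.4 CPM (log2 2.56 ± 0.17, adjusted p = 2.68e-09). *EMC10*, a subunit of the ER membrane complex, rose from 33.8, 41.6 and 49.9 CPM to 136, 199.8 and 200.6 CPM (log2 2.10 ± 0.16, adjusted p = 2.18e-08). These 3 genes were picked among genes with separate libraries, so their separation between the strains follows from that choice.

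Several groups gave no call in either direction in edgeR. None of 44 nuclear pore and nuclear membrane genes passed it, with 9 higher and 4 lower at an unadjusted p below 0.05 and 0 by limma-voom and DESeq2. None of 33 proteasome genes did, with 2 higher and 10 lower at an unadjusted p below 0.05 and 0 by the other tools. None of 132 ribosomal protein genes did either, with 4 higher and 51 lower at an unadjusted p below 0.05, 0 by the other tools and a median of -0.18. In that list 3 genes were lower without double mutant replicate 1 and 1 without *ino4Δ* replicate 3. Ribosome assembly factors gave 1 higher gene of 62, and this count rested on single libraries, with 7 without double mutant replicate 1, 4 without *ino4Δ* replicate 1, 2 without *ino4Δ* replicate 2 and 0 without replicate 3 of either strain.

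Whether the same genes changed with mga2ΔTM in another background was addressed by the *mga2ΔTM* and *mga2Δ* libraries, 3 of each. None of them is shared with the comparison above. These strains keep *INO4* and lack chromosomal *MGA2*, and they too differ by the plasmid and the medium. The backgrounds thus differ in both *INO4* and chromosomal *MGA2*, and the parts of these in any difference cannot be told apart. *MGA2* had 35368, 29017 and 32378 reads in the double mutant, chromosomal ones included, and 19155, 18388 and 17037 in *mga2ΔTM*. The part of this level in the differences below was not tested. Over 6160 genes, without the engineered *MGA2*, *URA3*, *OLE1* and *INO4*, the log2 changes of both comparisons correlated at Pearson's r = 0.70 and Spearman's rho = 0.62. This is a description across genes, which are not independent, and both comparisons share the change of medium and plasmid. Higher in both were 160 genes, 60.4% of those higher in the double mutant and 46.1% of those higher in *mga2ΔTM*. Lower in both were 182 genes, 57.2% and 40.6%, and no gene was called in opposite directions.

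The difference between the changes was tested as an interaction. In 86 genes (1.4%) the change was more positive in the *ino4Δ* background and in 117 (1.9%) more negative. Left out singly, libraries moved these counts. The first was 200 without double mutant replicate 1 and 184 without *mga2Δ* replicate 1, with 59 as the lowest, and the second ran from 77 (without double mutant replicate 2) to 171.

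*OLE1* rose less in the *ino4Δ* background, and in desaturation and elongation 2 of 7 genes, *OLE1* and *ELO1*, differed in that direction. *OLE1* changed by 1.37 and by 2.52, a difference of -1.15 (SE 0.25, adjusted p = 0.0109). Its mean level reached 2280 ± 421 CPM (SD, n = 3) in the double mutant and 2219 ± 154 CPM in *mga2ΔTM*, and it started from 882 CPM in *ino4Δ* and 387 CPM in *mga2Δ*. *ELO1* changed by 1.14 and 2.10 (difference -0.96, adjusted p = 0.00167) and *MVD1* by 0.71 and 1.502 (difference -0.80, adjusted p = 0.000199). For *IZH4* the changes were 2.75 and 6.10 (difference -3.35 ± 0.27 SE, adjusted p = 7.25e-07), with means of 116 CPM in the double mutant and 142.5 CPM in *mga2ΔTM* and starting means of 17.3 and 2.08 CPM. *IZH2* and *HES1* also rose less, with differences of -1.22 and -1.19. The mean level of the control strain was higher in *ino4Δ* than in *mga2Δ* for *OLE1*, *IZH4*, *IZH2* and *HES1* and lower for *MVD1* (129 and 166 CPM), differences that were not tested.

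*FAS2* went the other way, with a change of 0.93 against 0.28 (difference 0.65, adjusted p = 0.0136, and 0.58 with no call without double mutant replicate 1). Its mean levels were 1400 CPM in *ino4Δ*, 2674 CPM in the double mutant, 4576 CPM in *mga2Δ* and 5553 CPM in *mga2ΔTM*, so both *ino4Δ* strains were below both strains with *INO4*. *TLD1* rose more in *ino4Δ* by 0.66 and *SAM2* by 0.84.

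The fall of ER genes was smaller in *ino4Δ*. In the unfolded protein response list 6 of 22 genes differed toward more positive and 0 toward more negative values. The mean log2 CPM of the list was 6.84, 6.99 and 7.00 in *mga2Δ*, 6.72, 6.72 and 6.74 in *ino4Δ* and 6.32, 6.43 and 6.34 in wild-type. *KAR2* changed by -1.02 and by -2.15 (difference 1.13, adjusted p = 4.54e-05), with means of 2077 and 1027 CPM in the *ino4Δ* strains and 3368 and 760 CPM in the *mga2Δ* strains. *ERO1* changed by -1.04 and -2.30 (difference 1.26, adjusted p = 2.27e-05) and *SIL1* by -0.91 and -2.01 (difference 1.11, adjusted p = 2.23e-06).

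Nitrogen genes rose less in *ino4Δ*, and 11 of 34 tested genes of nitrogen catabolite repression differed in that direction and none in the other. *PUT4*, the proline permease, was at -0.30 in *ino4Δ* and at 2.03 in *mga2Δ* (difference -2.33, adjusted p = 7.33e-07). Its mean was 22.8 CPM in *ino4Δ*, 18.5 CPM in the double mutant, 5.21 CPM in *mga2Δ* and 21.3 CPM in *mga2ΔTM*, so *mga2Δ* was the low strain. *DAL80*, a repressor of the same circuit, was at 0.56 and 2.97 (difference -2.41, adjusted p = 5.71e-05) and *MEP2* at 1.36 and 2.77 (difference -1.41, adjusted p = 4.52e-05). Iron genes were mixed, with 1 of 32 more positive and 3 more negative (5 without double mutant replicate 1). *FET3* changed by 1.14 and 2.42 (difference -1.29, adjusted p = 0.00363) and *SIT1* by 1.54 and 2.93 (difference -1.39, adjusted p = 0.0144).

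**Figure D4:**
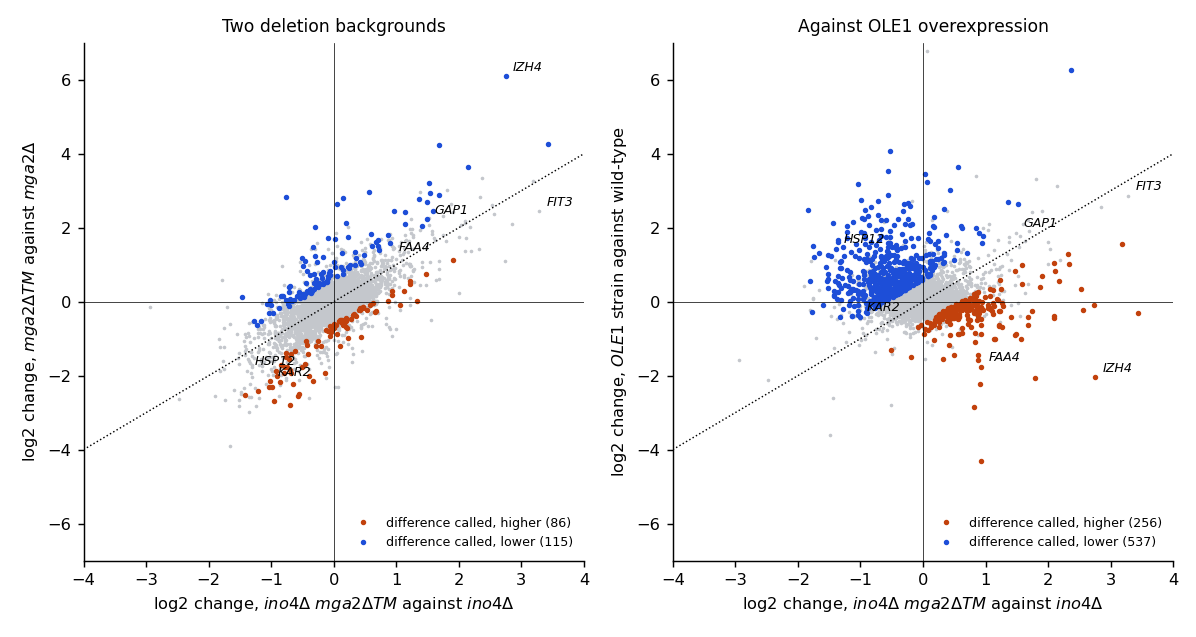
Log2 change of each gene in the double mutant against *ino4Δ* (x axis) and, on the y axis, in *mga2ΔTM* against *mga2Δ* (left) or in the *OLE1* strain against wild-type (right), without *MGA2*, *URA3*, *OLE1* and *INO4*. Coloured points are genes whose changes differ by the test of the difference and the dotted line marks equal changes, which the left panel follows (r = 0.70) and the right does not (r = 0.004).

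The *OLE1* strain offered a comparison with more desaturase and no extra Mga2. It is wild-type with a plasmid that makes Ole1 from the GPD promoter, in SDC-URA, and was set against wild-type in SDC+All, with 3 libraries of each and none shared with the comparisons above. Plasmid backbone and medium therefore changed in the same way. The *OLE1* strain and wild-type keep *INO4*, however, which both strains of the double mutant comparison lack. The parts of *INO4* and of the plasmid's insert in any difference therefore cannot be told apart. Between the plasmid-free strains, *ino4Δ* against wild-type had 1185 genes higher and 620 lower. *MGA2* did not stay level, with 1644, 1335 and 1255 reads in the *OLE1* strain and 3107, 2374 and 2944 in wild-type. It thus moved in opposite directions in the double mutant and the *OLE1* comparisons, and its part in the differences below was not tested. The log2 changes showed almost no correlation over 6160 genes (Pearson's r = 0.004, Spearman's rho = -0.006). Higher in both were 68 genes (25.7% of those higher in the double mutant and 18.1% of those higher in the *OLE1* strain) and lower in both were 9 (2.83% and 14.8%). In opposite directions were 21 genes higher in the double mutant and lower in the *OLE1* strain, and 61 the reverse. The test of the difference called 257 genes (4.17%) more positive in the double mutant comparison and 538 (8.73%) more negative. The first count was 387 without double mutant replicate 1.

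Some lipid genes differed in sign. *FAA4* changed by 0.93 in the double mutant and by -1.76 in the *OLE1* strain (difference 2.69 ± 0.19 SE, adjusted p = 1.06e-08). *ACC1* changed by 0.83 and -0.85, *FAS2* by 0.93 and -0.88 and *FAS1* by 0.63 and -0.84, and each difference was called. In fatty acid synthesis 5 of 6 genes differed toward higher values in the double mutant. *ELO1* changed by 1.14 and -1.01, *PLB2* by 0.91 and -2.22, and *IZH4* by 2.75 and -2.05 (difference 4.80 ± 0.27 SE, adjusted p = 7.35e-10). *OLE1* itself, made from the plasmid in the *OLE1* strain, changed by 1.37 and 3.60.

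General stress genes fell in one comparison and rose in the other, where 12 of 26 were higher. *HSP12* was at -1.39 and 1.43 (difference -2.81, adjusted p = 4.98e-06), *YGP1* at -1.21 and 1.88 and *GRE1* at -0.98 and 2.26, and 22 of the 26 genes differed toward lower values in the double mutant. That count was 15 without *ino4Δ* replicate 3, wild-type replicate 1 or wild-type replicate 3, and 24 without wild-type replicate 2. Mean *HSP12* was 1748 CPM in *ino4Δ* and 669 CPM in the double mutant, and 348 CPM in wild-type and 938 CPM in the *OLE1* strain, so *ino4Δ* was the highest of the 4 strains and wild-type the lowest. Mitochondrially encoded genes differed in 16 of 21 toward lower values, and nitrogen genes in 17 of 34. Leaving out 1 library at a time gave 12 to 17 and 16 to 18.

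Iron genes were called higher in each comparison of a plasmid strain in SDC-URA with a plasmid-free strain in SDC+All. Of the 32, 15 were higher and 0 lower in the double mutant, 18 and 0 in *mga2ΔTM* against *mga2Δ* (median 0.77) and 19 and 1 in the *OLE1* strain (median 0.81). The test of the difference from the *OLE1* strain called 2 of them more positive and 5 more negative in the double mutant. *FIT3* changed by 3.28, 2.44 and 2.86, and the difference tests called it in neither case (adjusted p = 0.190 and 0.451). *GAP1* likewise changed by 1.49, 2.23 and 1.87. The parts of the plasmid and the medium in the iron and nitrogen genes were not tested.

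**Figure D5:**
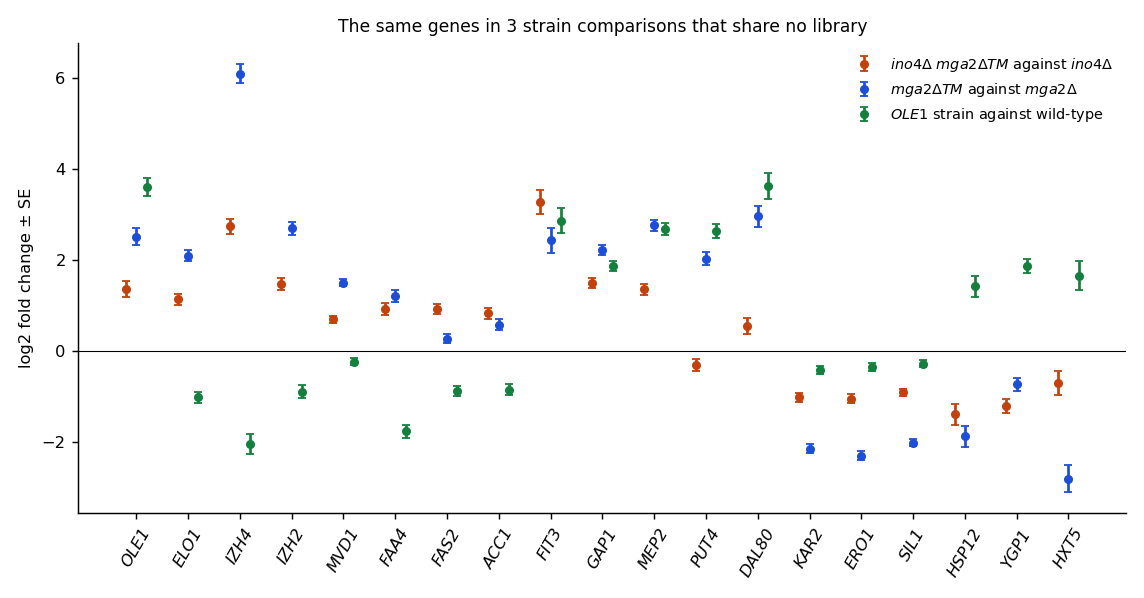
Log2 fold change ± SE of 19 genes in the double mutant against *ino4Δ* (orange), *mga2ΔTM* against *mga2Δ* (blue) and the *OLE1* strain against wild-type (green), with 3 libraries per strain and no library shared. *FIT3* and *GAP1* lie above 0 in all 3, *ELO1*, *IZH4* and *FAA4* lie above 0 in the mga2ΔTM comparisons and below it in the *OLE1* strain, and *KAR2* is lowest in *mga2ΔTM*.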

How the data were processed

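RNA was depleted of ribosomal RNA, reverse transcribed with random primers and read as single ends. The authors deposited 1 table of raw counts for 21 libraries, made with STAR 2.5.1b (alignment) and HTSeq 0.5.4p3 (reads per gene), as given in their processing notes and methods. The strand setting of the counting is not given in the sources used here, so reads of overlapping or antisense genes cannot be told apart. The 4 lines that name no gene were left out of 7126.

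Counts were fitted for all 21 libraries in edgeR 4.0.16 (R 4.3.3) with TMM normalisation and the robust quasi-likelihood test, Benjamini-Hochberg adjusted over 6164 of 7122 genes (filterByExpr, minimum count 10 and minimum total 15). A call needed a fold change above 1.5 and an adjusted p below 0.05. Differences between comparisons were interaction contrasts of the same fit. The fit was tested on simulated data, with changed genes drawn from those with higher counts. It called 22 of 50 genes changed 1.5-fold, 46 of 50 changed 2-fold and 50 of 50 changed 3-fold. It also called 4 unchanged genes. At 1.5-fold, the difference tests called 17 of 50 (*mga2Δ* background) and 21 of 50 (*OLE1* strain).

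Alternatives were limma-voom 3.58.1, DESeq2 1.42.0, other size factors and filters, a replicate block, only the strains compared, adjusted p alone, and each library left out. The library totals limit the precision to counting error and replicate spread. The libraries were taken by their titles, but the gene lists and the decision to describe this strain comparison were made with earlier results of these data known. Named genes were the engineered genes and *OLE1*, lipid genes of the study, up to 8 list members with the smallest adjusted p (all members of lists of up to 12), the 20 most changed called genes each way among those with at least 10 counts on average and separate libraries, and 12 each way for each difference. Others are marked as named after their values were seen. Promoter letters were matched to RefSeq (R64) for 5678 tested genes, and 6159 of the 7122 gene identifiers matched RefSeq. The labels do not say whether replicate numbers pair the libraries, and the main fit used no pairing. Residuals of same-numbered libraries of the 2 strains correlated at 0.128, -0.104 and -0.048. With so few libraries per strain, these values cannot decide whether libraries were paired.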

Additional observations from a re-analysis of the deposited data

Results flagged for a closer look

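The change from the plasmid-free strain to the strain with the mga2ΔTM plasmid, which includes the plasmid and the medium, differed between the *ino4Δ* background (which keeps chromosomal *MGA2*) and the *mga2Δ* background in 86 genes toward more positive and 117 genes toward more negative values (edgeR interaction test). Among the largest differences was that of *MGA2* (-8.05), where the *mga2Δ* control lacks the gene and the *ino4Δ* control keeps it, so this value follows from the strains. *PRM6*, a pheromone-regulated potassium transporter, differed by -3.59 at levels of 0.08 to 1.65 mean CPM over these 4 strains. *IZH4* differed by -3.35, *DAL80* by -2.41 and *PUT4* by -2.33. *YGL262W*, a gene of unknown function, differed by -2.57 and averaged at most 1.84 CPM in each of these strains. Its call was lost without *ino4Δ* replicate 2 (-2.19, adjusted p = 0.0776), *mga2Δ* replicate 2 (-2.56, adjusted p = 0.0569) or *mga2Δ* replicate 3 (-2.53, adjusted p = 0.0592).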

How the results depend on the processing

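The counts of 265 and 318 stayed within 1.5 times under limma-voom (257 and 330), DESeq2 (279 and 293), other scalings and filters, and leaving out 1 library (235 to 357 higher, 232 to 331 lower). With the adjusted p alone, the counts were 843 and 925 for the double mutant, 179 and 212 for the difference from the *mga2Δ* background, and 636 more positive for the difference from the *OLE1* strain. A test against the 1.5-fold minimum in edgeR, chosen after seeing the data, gave 107 and 60, 8 and 14, and 75 and 195. Single libraries moved the difference from the *mga2Δ* background between 59 and 200 more positive (200 without double mutant replicate 1, 184 without *mga2Δ* replicate 1) and between 77 (without double mutant replicate 2) and 171 more negative, and that from the *OLE1* strain between 240 and 387 more positive (387 without double mutant replicate 1) and between 418 and 660 more negative.

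The replicate block, which rests on shared numbers alone, gave 264 and 300, 88 and 125, and 250 and 526 calls. Same-numbered libraries correlated at -0.104 to 0.128 in their residuals and other pairs at -0.152 to 0.202. Of 374 named genes 197 were called, and 155 of them also under every one of these settings that tested them except adjusted p alone and the 1.5-fold test. No direction reversed.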

Other observations

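Genes of Ty retrotransposons, which exist in many near-identical copies so that reads cannot be assigned to 1 copy with certainty, gave 27 higher and 2 lower of 37 tested in the double mutant against *ino4Δ*, with a median log2 change of 1.20. Their summed level was 679, 688 and 711 CPM in *ino4Δ* and 1749, 1226 and 1254 CPM in the double mutant, and the strains did not overlap. This set was chosen after its values were seen.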
